A study of Mus musculus with 12 samples.

Results

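The 9 genes described here encode a pair of chemokines, Cxcl9 and Cxcl10, and 7 immunity-related GTPases, Irgm1, Irgm2, Igtp, Iigp1, Tgtp1, Tgtp2 and Ifi47. All 9 were found by gene identifier among the 21965 genes of the count table, and all 9 passed the filter on low counts that left 15046 genes. They were chosen by gene family, with the measured difference between ligated CybbKO and ligated WT tissue already known. For that comparison their values are therefore a description, and no support is drawn from its p-values. Gingival tissue was sequenced in 12 mRNA libraries in 4 groups of 3. WT mice were C57BL/6 per the labels (C57BL/6J per the methods) and CybbKO mice were Cybb-/-, a line in which the gene for the Nox2 subunit Cybb is disrupted in every cell. Ligated tissue surrounded a silk ligature tied around a maxillary molar and was taken after 8 days, and naive mice of both genotypes had no ligature. The labels give an age under 12 weeks for all mice. WT mice were purchased and CybbKO mice came from another laboratory, so genotype and colony of origin cannot be told apart. The sources used here do not say whether each library is 1 mouse, and the spread between libraries may be partly technical.

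Interferon-gamma is released mainly by T cells and natural killer cells. It binds the receptor formed by Ifngr1 and Ifngr2, and the kinases Jak1 and Jak2 then signal to promoters that hold gamma-activated sites. The signal also induces Irf1, a factor that binds interferon-stimulated response elements, which are likewise used by type I interferon. Cxcl9 and Cxcl10 are secreted ligands of Cxcr3 and attract activated T cells, while the GTPases act inside the cell on vacuoles that hold intracellular pathogens. Irgm1, Irgm2 and Igtp (Irgm3) are the regulatory GTPases of this system, and Iigp1 (Irga6), Tgtp1 and Tgtp2 (both Irgb6) and Ifi47 (Irgd) are effectors that are loaded onto the vacuole.

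Cxcl9 (ENSMUSG00000029417, chromosome 5, 92321347 to 92328079, minus strand) and Cxcl10 (ENSMUSG00000034855, chromosome 5, 92346638 to 92348889, minus strand) are neighbours on GRCm38. Most of the GTPase genes lie on chromosome 11. Irgm1 (ENSMUSG00000046879) spans 48861968 to 48871683 on the minus strand, Tgtp1 (ENSMUSG00000078922) spans 48985327 to 48994172 on the minus strand, and Tgtp2 (ENSMUSG00000078921) spans 49057194 to 49064206 on the minus strand. Ifi47 (ENSMUSG00000078920) spans 49076587 to 49096974 on the plus strand. Igtp (ENSMUSG00000078853, 58199556 to 58207591) and Irgm2 (ENSMUSG00000069874, 58199618 to 58222782) overlap on the plus strand. Iigp1 (ENSMUSG00000054072) is on chromosome 18.

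Some of these loci share sequence, which limits how reads can be assigned. The longest open reading frames of Tgtp1 and Tgtp2 are identical at 1244 of 1248 bases (99.7%). Reads that match both copies could be split between them or left uncounted, and the methods do not say which. Igtp and Irgm2 share 162 exon bases on the same strand, and Tgtp1 shares 223 with Gm12185. Ifi47 shares 111 exon bases with Olfr56 on the same strand. Cxcl10 overlaps Art3 by 133 exon bases on the opposite strand. Between the other pairs of GTPases the reading frames were 49.8% to 67.2% identical, the last value being that of Irgm2 and Igtp.

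The promoters of 8 members were read from RefSeq on GRCm38.p6, in windows from 250 bases before to 50 bases after the RefSeq start, and Iigp1 had no window. They are shown because the members are defined by their response to interferons, and the motifs known from such promoters can be read in them. Both strands were searched for the response element core GAAANNGAA and for the gamma-activated site TTCNNNGAA. Each stretch below covers 120 bases on the strand of the gene, with motif matches in capitals. Those of Cxcl9 and Cxcl10 run from 230 to 111 bases before the start, and the others from 110 bases before to 9 bases after it. The regions are chr5:92328190-92328309 for Cxcl9, chr5:92349000-92349119 for Cxcl10, chr11:48871411-48871530 for Irgm1, chr11:58214867-58214986 for Irgm2, chr11:58199446-58199565 for Igtp, chr11:48992237-48992356 for Tgtp1, chr11:49064203-49064322 for Tgtp2 and chr11:49076477-49076596 for Ifi47.
Cxcl9: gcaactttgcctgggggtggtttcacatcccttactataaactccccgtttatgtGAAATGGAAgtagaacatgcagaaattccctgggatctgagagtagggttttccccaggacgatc
Cxcl10: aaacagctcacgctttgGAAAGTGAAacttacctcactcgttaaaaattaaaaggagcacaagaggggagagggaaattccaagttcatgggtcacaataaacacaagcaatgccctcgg
Irgm1: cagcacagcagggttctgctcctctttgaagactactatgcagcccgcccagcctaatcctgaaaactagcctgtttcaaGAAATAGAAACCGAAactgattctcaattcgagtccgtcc
Irgm2: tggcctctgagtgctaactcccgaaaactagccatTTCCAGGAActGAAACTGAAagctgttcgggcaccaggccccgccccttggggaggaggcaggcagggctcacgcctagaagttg
Igtp: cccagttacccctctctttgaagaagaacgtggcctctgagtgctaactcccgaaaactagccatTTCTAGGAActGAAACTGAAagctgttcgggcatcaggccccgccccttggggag
Tgtp1: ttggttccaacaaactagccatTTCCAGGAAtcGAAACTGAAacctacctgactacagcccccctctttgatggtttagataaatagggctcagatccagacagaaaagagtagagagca
Tgtp2: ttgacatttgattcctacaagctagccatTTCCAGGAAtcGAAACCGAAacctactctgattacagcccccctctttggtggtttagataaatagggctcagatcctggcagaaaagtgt
Ifi47: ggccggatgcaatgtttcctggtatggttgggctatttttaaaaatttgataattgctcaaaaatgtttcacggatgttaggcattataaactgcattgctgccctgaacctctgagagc

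The response element core was present in 7 of the 8 windows, all but that of Ifi47, and in 8.56% of all 32851 RefSeq windows. The gamma-activated site was present in 4 of the 8, those of Irgm2, Igtp, Tgtp1 and Tgtp2, and in 8.30% of all windows. The stricter letters TTCCNGGAA matched in 3 of the 8, not in Igtp, and in 1.15% of all windows. In these 4 GTPase promoters the gamma-activated site began exactly 11 bases before the core, an arrangement held by 8 windows in all (0.0244%). That distance was noted only after the sequences had been seen, and near-identical copies are not independent examples. In Irgm1, 2 cores overlapped, from 30 to 22 and from 24 to 16 bases before the start. The end of the Irgm2 window was not found in a GENCODE transcript, unlike those of the other 7. For comparison, the core was present in 5 of 5 windows of guanylate-binding proteins and in 10 of 15 of type I interferon-stimulated genes. A match describes letters only and does not show binding.

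**Figure D1:**
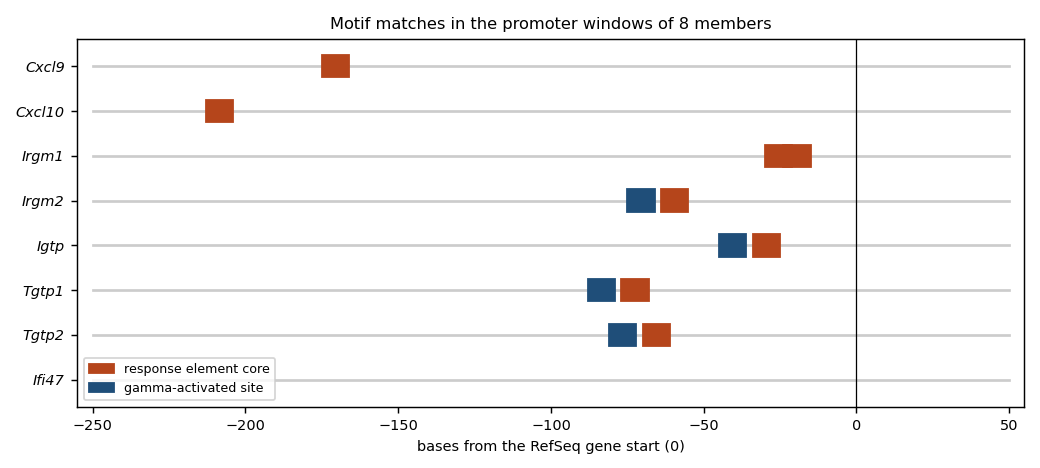
Motif matches in the promoter windows of 8 members. The x axis is the distance in bases from the RefSeq start at 0, each row is a gene, red boxes are response element cores and blue boxes gamma-activated sites. The blue and red boxes stand side by side at the same distance in Irgm2, Igtp, Tgtp1 and Tgtp2, and Ifi47 has neither.

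Total counts ran from 27958819 to 42613423 per library, and keratins of oral epithelium such as Krt13 and Krt76 were abundant in every library, with 9 epithelial markers summing to between 59915 and 123260 CPM (counts scaled to the library size). The targeted gene did not check the labels. In ligated tissue Cybb averaged 12.1 ± 3.43 CPM (SD, n = 3) where the label was WT and 57.0 ± 6.31 CPM (SD, n = 3) where it was CybbKO, and it was also higher in the naive CybbKO libraries. Genotype below therefore means the label. A count over a whole gene does not show which exons were read.

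Of the chemokines, Cxcl9 spanned the widest range of the 9 members. In naive WT it was at 18.9, 0.980 and 0.0729 CPM in replicates 1, 2 and 3, the last from 2 reads. Naive CybbKO libraries held 3.35, 5.38 and 4.24 CPM. After ligature it was at 0.299, 0.523 and 3.04 CPM in WT and at 7.13, 74.6 and 15.9 CPM in CybbKO. Every ligated CybbKO library lay above every ligated WT and every naive CybbKO library, whereas naive WT replicate 1 lay above 2 of the ligated CybbKO libraries. Cxcl10 had lower group means, though it lay above Cxcl9 in naive WT replicate 3 and ligated WT replicate 1. Its naive values were 6.88, 0.126 and 1.17 CPM in WT and 0.837, 2.69 and 1.28 CPM in CybbKO. Its ligated values were 0.448, 0.497 and 1.505 CPM in WT and 2.87, 15.1 and 5.34 CPM in CybbKO. The ligated CybbKO and ligated WT values again did not overlap.

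Among the regulatory GTPases, Irgm1 was the most even member. It was at 29.5, 12.6 and 11.8 CPM in naive WT and at 15.8, 24.5 and 29.8 CPM in naive CybbKO libraries. Ligated tissue held 15.7, 18.7 and 21.9 CPM in WT and 28.7, 61.7 and 30.8 CPM in CybbKO. Irgm2 was lower and less even. It was at 23.1, 6.96 and 7.54 CPM in naive WT and at 11.1, 14.2 and 26.3 CPM in naive CybbKO. Its ligated values were 8.59, 11.3 and 11.03 CPM in WT and 19.2, 50.5 and 20.97 CPM in CybbKO. For both genes ligated CybbKO replicate 2 stood well apart while the other ligated CybbKO libraries were close to each other. Igtp shared this pattern. It was at 21.2, 4.40 and 3.75 CPM in naive WT and at 7.36, 9.40 and 23.9 CPM in naive CybbKO. In ligated tissue it was at 4.01, 5.55 and 7.005 CPM in WT and at 12.0, 49.4 and 12.6 CPM in CybbKO.

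The effectors covered very different levels. Iigp1 was at 25.1, 4.71 and 3.10 CPM in naive WT, at 8.83, 12.4 and 33.8 CPM in naive CybbKO, at 3.96, 8.03 and 8.51 CPM in ligated WT and at 19.03, 63.9 and 25.5 CPM in ligated CybbKO. Ifi47 was at 10.9, 2.44 and 2.30 CPM in naive WT, at 3.23, 4.80 and 11.5 CPM in naive CybbKO, at 3.16, 4.24 and 6.20 CPM in ligated WT and at 10.4, 26.7 and 12.2 CPM in ligated CybbKO. In both genes naive WT replicate 1 and naive CybbKO replicate 3 were the high naive libraries. The near-identical copies Tgtp1 and Tgtp2 had few counted reads. Tgtp1 was at 1.86, 0.0949 and 0.146 CPM in naive WT, at 0.577, 0.749 and 3.02 CPM in naive CybbKO, at 0.224, 0.392 and 0.675 CPM in ligated WT and at 1.91, 6.77 and 2.08 CPM in ligated CybbKO, with 3 and 4 reads in its lowest libraries. Tgtp2 was at 1.46, 0.569 and 0.219 CPM in naive WT, at 1.07, 1.83 and 4.54 CPM in naive CybbKO, at 0.622, 0.706 and 1.01 CPM in ligated WT and at 2.48, 7.65 and 2.30 CPM in ligated CybbKO. As the gene bodies differ in length, levels of different members were compared per kilobase of exon. On that scale Igtp ranked first in 3 groups and Irgm1 in ligated WT, and Tgtp1 ranked last in all 4. Reads left uncounted because they match both copies would lower the levels of Tgtp1 and Tgtp2.

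**Figure D2:**
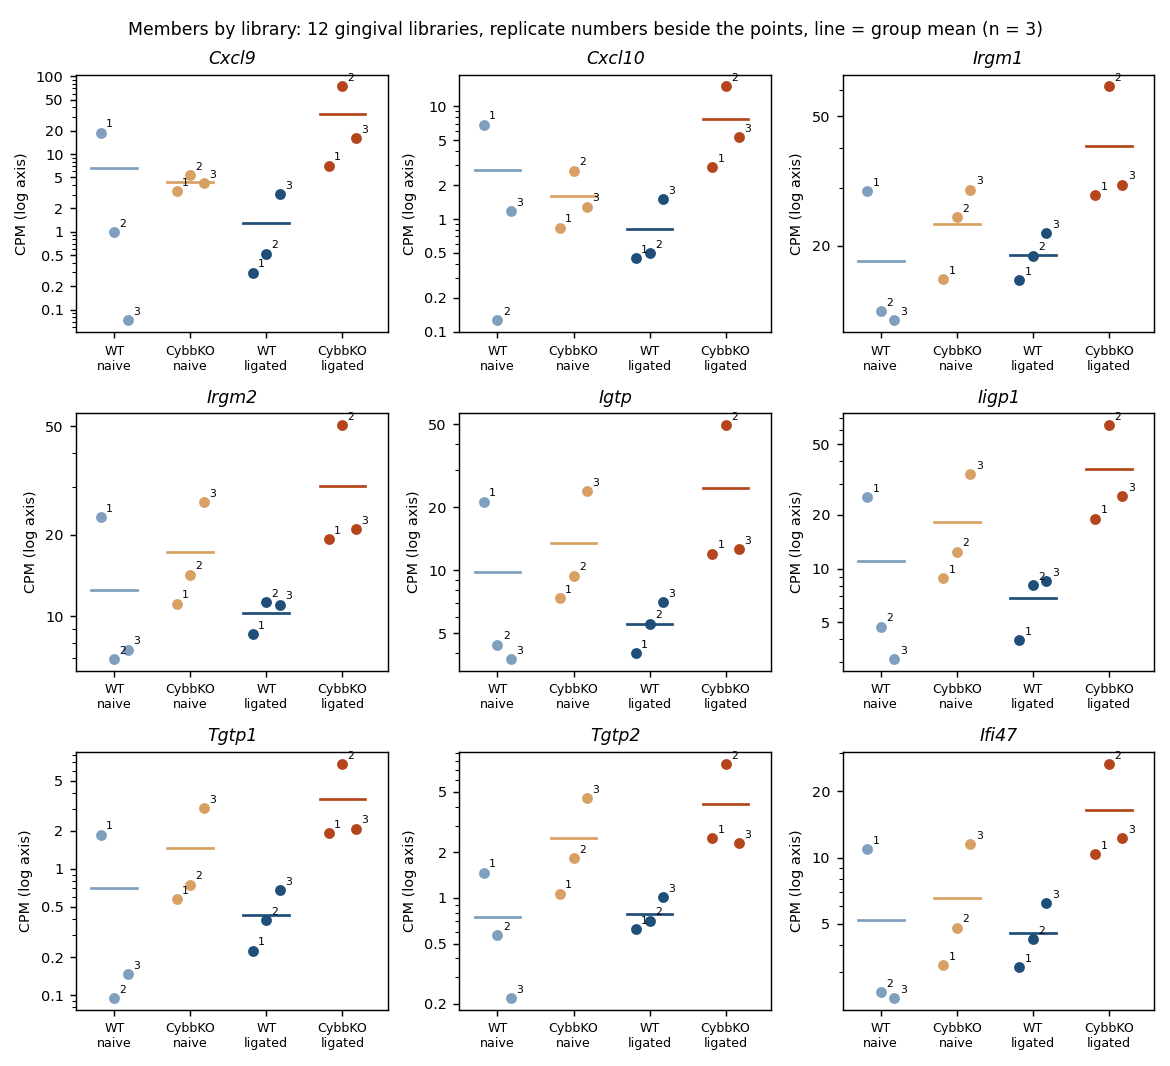
CPM of the 9 members in each library. Each panel is a gene with a logarithmic y axis in CPM, points are libraries with their replicate numbers, and lines are group means (n = 3). Ligated CybbKO replicate 2 is the highest point in every panel, and naive WT replicate 1 lies above the other naive WT libraries in every panel.

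For each of the 9 genes the group with the highest mean was ligated CybbKO. The second was naive CybbKO for the 7 GTPases and naive WT for the chemokines. Neighbouring groups in this order overlapped for 7 of the 9 genes at every step. The exceptions were Cxcl9, where ligated WT in the last place lay below every naive CybbKO library, and Tgtp2, where naive CybbKO in the second place lay above every ligated WT library. The share of all genes with such gaps was not counted, so nothing is read from these exceptions. In bulk tissue, fewer cells of a type and less RNA per cell cannot be told apart.

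Libraries within a group differed more than the group means did in places, so the libraries that stand apart are given before the comparisons. Ligated CybbKO replicate 2 ranked first of 12 for 9 of 9 members, from 2.08 (Irgm1) to 6.47 (Cxcl9) times the mean of the other ligated CybbKO libraries. Naive WT replicate 1 was 2.41 (Irgm1) to 35.8 (Cxcl9) times the mean of the other naive WT libraries. Naive CybbKO replicate 3 was 1.48 times the mean of the others for Irgm1 and up to 4.55 times for Tgtp1 among the GTPases, but 0.971 times for Cxcl9 and 0.726 times for Cxcl10. In this library the GTPases were high without the chemokines. The summed CPM of the 9 members was 356 in ligated CybbKO replicate 2, 139 in naive WT replicate 1 and 138 in naive CybbKO replicate 3, against 30.1 in naive WT replicate 3.

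Across the 12 libraries the GTPases followed each other closely. Over their 21 pairs, Pearson's r of log2 CPM was 0.908 to 0.983 with a median of 0.959, and 0.883 to 0.989 after the group means were removed. Chemokine with GTPase pairs gave 0.690 to 0.919, and Cxcl9 with Cxcl10 gave 0.809. After the group means were removed these fell to 0.525 to 0.841 and to 0.668. These correlations are descriptions over 12 libraries that share their depth, their tissue composition and the 3 libraries named above. The chemokines separated from the GTPases chiefly in naive CybbKO replicate 3, whose mean z-score was 0.993 for the GTPases and -0.0107 for the chemokines.

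**Figure D3:**
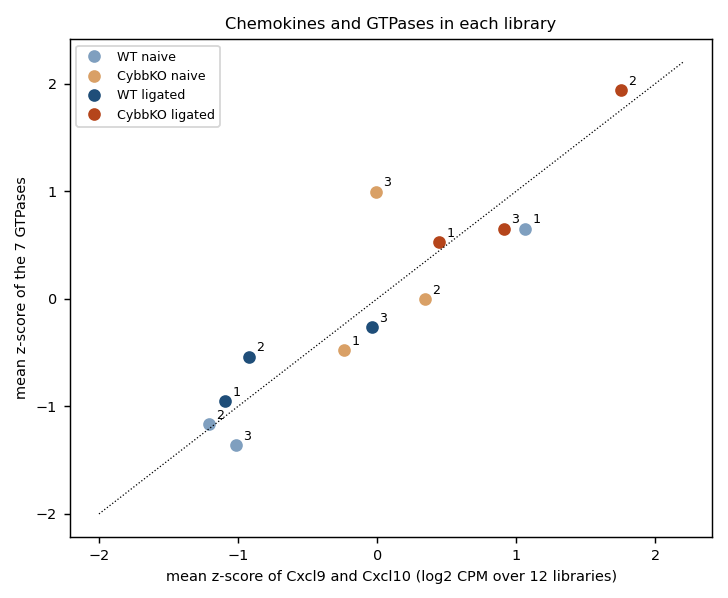
Mean z-score of the 7 GTPases (y axis) against that of Cxcl9 and Cxcl10 (x axis), each z-score taken over the 12 libraries on log2 CPM. Points are libraries coloured by group with their replicate numbers, and the dotted line marks equal values. Ligated CybbKO replicate 2 is at the upper right at 1.76 and 1.94, and naive CybbKO replicate 3 lies above the line.

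Among the 10 genes whose profile was most like the members' mean z-score were Gbp2 (r = 0.995), B2m (0.974), Oasl2 (0.968), Gbp3 (0.962), Oas1g (0.957), Oas1a (0.944), Irf7 (0.943), Gbp6 (0.939) and Nlrc5 (0.938), over 12 libraries. Gbp2 was first for 7 of the 9 members taken alone, the exceptions being Cxcl10 and Tgtp2. Cxcl10 was most like Map7d2 (0.914), Ifit1bl2 (0.903) and Taok3 (0.903), and Tgtp2 was most like Gbp4 (0.974), Nlrc5 (0.950) and B2m (0.936). The third gene for Cxcl9 was Samhd1 (0.893). When the group means were removed first, 7 of the 10 genes were again among the first 10.

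In ligated tissue, the comparison that was known when the genes were chosen, all 9 members were higher in CybbKO than in WT. The log2 fold change was 4.66 (SE 1.32) for Cxcl9 and 3.24 (SE 1.01) for Cxcl10. Among the effectors it was 3.05 (SE 0.98) for Tgtp1, 2.40 (SE 0.68) for Tgtp2, 2.40 (SE 0.75) for Iigp1 and 1.86 (SE 0.63) for Ifi47. The regulatory GTPases gave 2.16 (SE 0.73) for Igtp, 1.56 (SE 0.50) for Irgm2 and 1.10 (SE 0.38) for Irgm1. Their median was 2.40, beside 0.01 for all genes tested. For 9 of 9 members every CybbKO library lay above every WT library, an order that 5.0% of all 15046 genes showed. Without ligated CybbKO replicate 2 the median was 1.61, Cxcl9 was at 3.16 and Cxcl10 at 2.33. Without ligated WT replicate 3, Cxcl9 was at 6.30 and Cxcl10 at 4.03. By adjusted p, edgeR called 0 of the 9 and DESeq2 called 0, beside 0.00665% of all genes called by edgeR (1 gene, Cybb). At an unadjusted p under 0.05 there were 9 members in both tools, beside 3.34% of all genes in edgeR and 3.67% in DESeq2. Nothing is read from these counts, since the same comparison was known in the choice of the genes.

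In naive tissue the 2 chemokines had lower estimates in CybbKO than in WT and the 7 GTPases higher ones, and none passed the test. The log2 fold change of CybbKO over WT was -0.62 (SE 1.28) for Cxcl9 and -0.77 (SE 1.00) for Cxcl10. It was 0.38 (SE 0.39) for Irgm1, 0.45 (SE 0.50) for Irgm2, 0.46 (SE 0.72) for Igtp, 0.74 (SE 0.75) for Iigp1, 1.02 (SE 0.98) for Tgtp1, 1.70 (SE 0.70) for Tgtp2 and 0.32 (SE 0.64) for Ifi47. EdgeR and DESeq2 each called 0 of the 9, beside 0.00665% of all genes called by edgeR. In both tools 1 member had an unadjusted p under 0.05, beside 2.03% of all genes in edgeR and 2.65% in DESeq2. In edgeR's quasi-likelihood test that member was Tgtp2 (unadjusted p = 0.0338, adjusted p = 1.00). The median of 0.45 depended on single libraries. Without naive WT replicate 1 it was 1.73, and Cxcl9 turned to 2.99 and Cxcl10 to 1.34. Without naive CybbKO replicate 3 it was -0.10.

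The ligature response of the members was not detected in WT. Their log2 fold changes of ligated over naive tissue ran from -2.37 (SE 1.34) for Cxcl9 and -1.74 (SE 1.03) for Cxcl10 to 0.06 (SE 0.39) for Irgm1. Values between these were -0.29 (SE 0.50) for Irgm2, -0.83 (SE 0.73) for Igtp, -0.69 (SE 0.76) for Iigp1, -0.72 (SE 1.03) for Tgtp1, 0.04 (SE 0.73) for Tgtp2 and -0.21 (SE 0.64) for Ifi47. EdgeR called 0 of the 9 and DESeq2 called 0, with 0 at an unadjusted p under 0.05 in either tool and edgeR adjusted p-values of 0.366 to 0.985, beside 3.20% of all genes called by edgeR (481), 9.11% called by DESeq2 and 19.9% at an unadjusted edgeR p under 0.05. The low side of these estimates rested on naive WT replicate 1. Without it the median moved from -0.69 to 0.80 and Cxcl9 from -2.37 to 1.23. In naive WT, the same replicate also had the highest sum of 14 T and NK cell markers, which came to 15.2, 7.59 and 4.23 CPM in replicates 1 to 3, and of 11 neutrophil markers, at 920, 463 and 519 CPM. Its dendritic cell and B and plasma cell sums were also the highest. Monocyte and macrophage markers came to 55.8, 59.7 and 55.5 CPM in the same order. Replicate 1 had the lowest fibroblast sum, with 1675, 2080 and 2738 CPM in replicates 1 to 3. Its endothelial, oral epithelium, salivary gland and bone and tooth sums were the lowest as well. The part of tissue makeup in the member values was not tested.

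In CybbKO tissue the estimates of ligated over naive were above 0 for all 9 members, and none passed the test. Cxcl9 had a log2 fold change of 2.91 (SE 1.26) and Cxcl10 of 2.27 (SE 0.99). The GTPases gave 0.79 (SE 0.38) for Irgm1, 0.81 (SE 0.50) for Irgm2, 0.86 (SE 0.72) for Igtp, 0.98 (SE 0.74) for Iigp1, 1.31 (SE 0.92) for Tgtp1, 0.74 (SE 0.66) for Tgtp2 and 1.33 (SE 0.63) for Ifi47. EdgeR called 0 of 9 with adjusted p-values of 0.173 to 0.507, beside 13.0% of all genes (1954), and DESeq2 called 0 with adjusted p-values of 0.109 to 0.532, beside 18.5% of all genes (2785). At an unadjusted p under 0.05 there was 1 member in edgeR, Cxcl10, beside 27.7% of all genes, and 4 in DESeq2, beside 29.9%. The ligated and naive libraries did not overlap for 2 of the 9, Cxcl9 and Cxcl10, an order that 18.5% of all genes showed. Without ligated CybbKO replicate 2 the median was 0.35 in place of 0.98, Cxcl9 was at 1.41 and Cxcl10 at 1.35. Markers of several cell types changed in the same comparison. EdgeR called 8 of 8 monocyte and macrophage markers (median log2 fold change 1.62), 7 of 9 neutrophil markers tested (2.87) and 3 of 5 dendritic cell markers (1.05) higher. It also called 4 of 5 fibroblast markers (2.58), 4 of 5 endothelial markers (1.04), 2 of 5 bone and tooth markers tested and 1 of 11 T and NK cell markers tested higher, and 2 of 4 B and plasma cell markers tested and 1 of 9 oral epithelium markers lower. Monocyte and macrophage markers summed to 48.7 to 54.5 CPM in naive and 117 to 184 CPM in ligated CybbKO, and neutrophil markers to 899 to 1018 CPM and 2961 to 11717 CPM. Their part in the member values was not tested. This comparison shares its ligated libraries with the one that was known when the genes were chosen.

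The difference between the 2 genotype effects, ligated minus naive, was 5.28 (SE 1.84) for Cxcl9 and 4.01 (SE 1.43) for Cxcl10 on the log2 scale. It was 0.73 (SE 0.55) for Irgm1, 1.10 (SE 0.71) for Irgm2, 1.69 (SE 1.03) for Igtp, 1.67 (SE 1.06) for Iigp1, 2.03 (SE 1.38) for Tgtp1, 0.70 (SE 0.98) for Tgtp2 and 1.54 (SE 0.90) for Ifi47. EdgeR called 0 of the 9 and 0% of all genes, and DESeq2 called 0 of the 9. Both chemokines had an unadjusted p under 0.05 in each tool, beside 2.27% of all genes in edgeR and 2.80% in DESeq2, with edgeR's adjusted p = 1.00. The median of 1.67 was 0.31 without naive WT replicate 1, where Cxcl9 was at 1.67 and Cxcl10 at 1.90. Without that library and ligated CybbKO replicate 2, a removal chosen after the data were seen, it was -0.28. The interaction contains the ligated comparison and is no separate evidence for it.

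**Figure D4:**
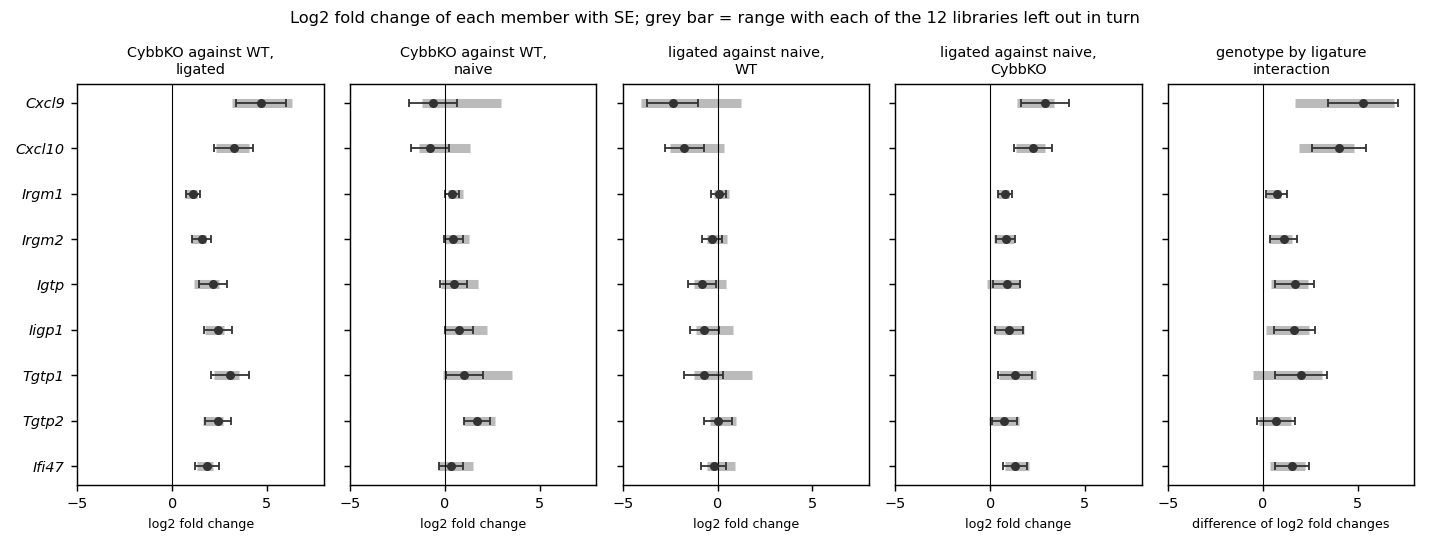
Log2 fold change of each member in the 5 contrasts, with the interaction as a difference of log2 fold changes. Points are estimates from the 12 libraries, error bars are SE, and grey bars span the estimates obtained when single libraries were left out. The grey bars stay right of 0 in ligated tissue and cross it for 6 members in naive tissue and for 9 in the WT ligature comparison.

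Of the pathway above the members, the ligand was barely read. Ifng had 0 to 8 reads per library and summed to 8 in naive WT and 3 in naive CybbKO before ligature, and to 4 in WT and 11 in CybbKO after it. All 8 reads of naive WT came from replicate 1, the library that stood apart for the members, and 6 of the 11 in ligated CybbKO came from replicate 2. Cxcr3, the receptor of Cxcl9 and Cxcl10, had 1 to 32 reads per library, with group means of 0.0633, 0.185, 0.189 and 0.561 CPM in naive WT, naive CybbKO, ligated WT and ligated CybbKO. Neither gene passed the filter on low counts. A difference in Ifng was not detectable at this depth.

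The receptor and kinases were abundant, with similar group means and some spread within groups. Ifngr1 was at 73.8 ± 4.52 and 69.3 ± 4.22 CPM (SD, n = 3) in naive WT and CybbKO and at 84.7 ± 30.3 and 101 ± 14.99 CPM (SD, n = 3) in ligated WT and CybbKO. Ifngr2 had means of 27.5 to 34.7 CPM, Jak1 of 194 to 230 CPM and Jak2 of 62.2 to 76.8 CPM over the 4 groups. None of these genes was called in any contrast. Socs1, an inhibitor of the Jak kinases, had means of 0.720 to 1.44 CPM and was not called.

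A few transcription factors and regulators of the pathway rose with ligature in CybbKO, the comparison in which the myeloid, fibroblast and endothelial markers above also rose. Their part in these genes was not tested. Irf1 rose from 22.1 ± 5.14 to 46.7 ± 14.6 CPM (SD, n = 3) between naive and ligated CybbKO, a log2 fold change of 1.08 (SE 0.25, adjusted p = 0.0182 in edgeR's quasi-likelihood test). The call was lost without naive CybbKO replicate 1 or replicate 2, with an adjusted p of up to 0.0710. Irf8, a factor of myeloid cells that also binds interferon response elements, rose from 2.51 ± 0.587 to 7.11 ± 1.29 CPM (SD, n = 3), with a log2 fold change of 1.502 (SE 0.31, edgeR adjusted p = 0.00969), and kept its call with each library left out. Ciita, the activator of MHC class II genes, and Socs3, an inhibitor of cytokine signalling, also rose, by 1.06 (SE 0.21) and 1.67 (SE 0.37) on the log2 scale, and were named after their values were seen. Socs3 lost its call without ligated CybbKO replicate 3 (adjusted p = 0.0636). These 4 were the genes called among the 18 of 22 pathway genes that passed the filter, with 0 lower, beside 13.0% of all genes. In the other contrasts edgeR called 0 of the 18. DESeq2 called 0 in both genotype contrasts and in the interaction, 1 in the WT ligature comparison (9.11% of all genes) and 4 in CybbKO (18.5% of all genes). The genes at an unadjusted edgeR p under 0.05 numbered 5 in ligated genotype, 1 in naive genotype, 2 in the WT ligature comparison and 1 in the interaction, beside 3.34%, 2.03%, 19.9% and 2.27% of all genes. The 4 genes called in CybbKO also had WT ligature estimates above 0. These were 0.32 (SE 0.25) for Irf1, 0.13 (SE 0.30) for Irf8, 0.84 (SE 0.22) for Ciita and 0.74 (SE 0.37) for Socs3. Irf8 averaged 4.11 ± 1.90 CPM (SD, n = 3) in naive WT, above its naive CybbKO mean.

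The other immunity-related GTPase genes were sparse apart from Irgq, a divergent family member, which was at 53.3 ± 4.65 and 53.6 ± 2.27 CPM (SD, n = 3) in ligated WT and CybbKO and at 68.0 ± 10.3 and 64.8 ± 6.13 CPM (SD, n = 3) in naive tissue. Gm4951 had means of 0.500 to 1.89 CPM, Gm5431 of 0.309 to 0.749 CPM and Gm12185 of 0.317 to 0.781 CPM. Gm4841 had 156 reads in ligated CybbKO replicate 2 and 0 to 18 reads in each of the other libraries. F830016B08Rik had 51 reads in that library and 0 to 8 elsewhere. Irgc1 and 9930111J21Rik1 had 0 to 4 reads per library. 9930111J21Rik2 rose from 0.409 ± 0.121 to 1.16 ± 0.352 CPM (SD, n = 3) with ligature in CybbKO, a log2 fold change of 1.503 (SE 0.36, edgeR adjusted p = 0.0184), and lost the call without any 1 of 4 CybbKO libraries, with an adjusted p of up to 0.0850. It was the 1 gene called of 6 tested in that contrast, beside 13.0% of all genes, and edgeR and DESeq2 each called 0 in the others, where 3, 1, 2 and 0 genes had an unadjusted edgeR p under 0.05 in ligated genotype, naive genotype, the WT ligature comparison and the interaction, beside the same shares of all genes.

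Cell markers were summed in each library to set the members beside the makeup of the tissue. In ligated tissue, T and NK cell markers summed to 12.2 to 20.7 CPM in WT and 21.7 to 25.9 CPM in CybbKO, and monocyte and macrophage markers to 82.4 to 127 CPM in WT and 117 to 184 CPM in CybbKO. Neutrophil markers summed to 1596 to 3937 CPM in WT and 2961 to 11717 CPM in CybbKO. Between ligated groups edgeR called 0 of 11 T and NK cell, 0 of 8 monocyte and macrophage and 0 of 9 neutrophil markers. At an unadjusted edgeR p under 0.05 there were 2, 4 and 5, beside 3.34% of all genes. S100a8 and S100a9 averaged 2433 and 3562 CPM in ligated CybbKO, so the neutrophil sum mainly follows these genes. Ligated CybbKO replicate 2, the highest library of the 12 for every member, was at rank 5 of 12 in summed neutrophil and dendritic cell markers, at rank 4 in monocyte and macrophage markers and at rank 2 in T and NK cell markers. Replicate 3 of the same group had the highest sum of each of these lists. Counted by gene, however, 6 of 11 neutrophil markers were highest of the 12 libraries in replicate 2 and 4 in replicate 3, and 5 of 14 T and NK cell markers were highest in each. Of all genes tested, 7.24% were highest in replicate 2 and 12.1% in replicate 3. Replicate 2 also differed from the rest of its group in other markers. In ligated CybbKO replicates 1, 2 and 3, fibroblast markers summed to 9641, 3630 and 8624 CPM. Oral epithelium markers summed to 67336, 106960 and 59915 CPM in the same order, and skeletal muscle markers to 898, 2615 and 777 CPM. The library with the highest member values therefore held the lowest fibroblast sum and the highest epithelial and muscle sums of its group. No T and NK cell, monocyte and macrophage or dendritic cell marker was at 0 over a group, and 1 of 11 neutrophil markers had no reads in ligated WT and 1 in naive WT. The part of cell composition in the member values was not tested.

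**Figure D5:**
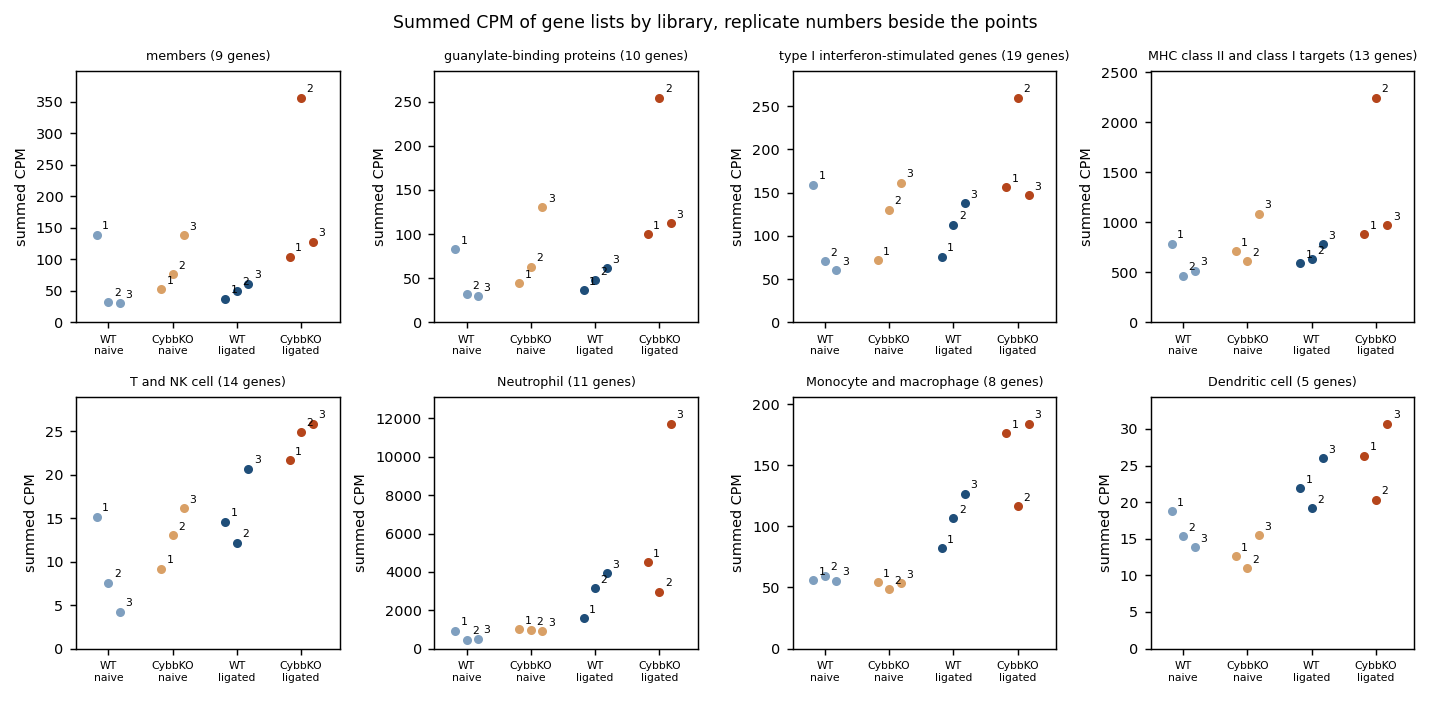
Summed CPM of 8 gene lists in each library. Each panel is a list with a linear y axis from 0, and points are libraries, numbered by replicate. Ligated CybbKO replicate 2 is the highest point in the 4 upper panels (members, guanylate-binding proteins, type I interferon-stimulated genes, MHC targets) and lies below ligated CybbKO replicate 3 in the 4 lower panels of cell markers.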

How the data were processed

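Gingival mRNA was measured in 12 libraries, which the labels place in 4 groups of 3. The deposited table holds the authors' raw counts per gene, not normalized. Per the methods, stranded libraries were aligned with STAR to GRCm38 and counted by strand with featureCounts, whereas the submitters' processing notes name FastQC 0.10.1 and HTSeq 0.10.0, and the deposited table is also named for HTSeq, so the sources differ on the counting tool. GENCODE M21 gave symbols and positions for 21939 of 21965 genes.

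The counts were fitted with edgeR 4.0.16 in R 4.3.3 (TMM factors of 0.918 to 1.08, filterByExpr, quasi-likelihood F test, 1 mean per group over the 12 libraries). The Benjamini-Hochberg adjustment ran over 15046 genes, and an adjusted p under 0.05 was a call. CPM values are counts scaled to the TMM library size. The common biological coefficient of variation was 0.240, so the spread between libraries limits most values more than counting. The alternatives were DESeq2 1.42.0, its size factors in edgeR, library size alone, other filters, a robust fit, fits of the compared libraries, the replicate number as a block, and each library left out. The fit was tested on simulated data. Tables and motif searches were made in Python 3.11.15.

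The members and lists were chosen with earlier results of these data known. Named genes were all 9 members, 10 genes of the interferon-gamma pathway, the other GTPase genes in the table, the 10 genes most like the members with the first 3 for each member, and the 2 most abundant genes of other lists, of which only some are printed. The values of 1 gene of the pathway are not reported here. A planned search of GTPase proteins was not made. No pair of libraries in a group agreed within sampling noise.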

Additional observations from a re-analysis of the deposited data

How the results depend on the processing

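The count of members called was 0 in all 5 contrasts under every alternative run. With at least 10 counts required in every library, 5 members could be tested. DESeq2, other scalings, other filters and the robust fit turned no member's direction. Single libraries did. When single libraries were left out, the naive log2 fold change of CybbKO over WT ran from -1.20 to 2.99 for Cxcl9, from -1.37 to 1.34 for Cxcl10, from -0.23 to 1.73 for Igtp, from -0.0504 to 2.23 for Iigp1, from -0.10 to 3.56 for Tgtp1 and from -0.38 to 1.46 for Ifi47. In the WT ligature comparison it ran from -4.01 to 1.23 for Cxcl9, -2.53 to 0.36 for Cxcl10, -0.17 to 0.62 for Irgm1, -0.58 to 0.50 for Irgm2, -1.22 to 0.44 for Igtp, -1.13 to 0.80 for Iigp1, -1.24 to 1.82 for Tgtp1, -0.38 to 0.96 for Tgtp2 and -0.56 to 0.94 for Ifi47. In the CybbKO ligature comparison it ran from -0.14 to 1.55 for Igtp and -0.0510 to 1.51 for Tgtp2, and the interaction ran from -0.51 to 3.14 for Tgtp1 and -0.22 to 1.47 for Tgtp2. Without ligated CybbKO replicate 2 and naive WT replicate 1 together, chosen after seeing the data, the naive genotype values were 2.99 for Cxcl9 and 1.34 for Cxcl10. The WT ligature values were then 1.24 for Cxcl9, 0.36 for Cxcl10, 0.50 for Irgm2, 0.44 for Igtp, 0.80 for Iigp1, 1.82 for Tgtp1 and 0.94 for Ifi47. The CybbKO ligature values were -0.14 for Igtp and -0.0508 for Tgtp2. The interaction was -0.27 for Irgm1, -0.28 for Irgm2, -0.58 for Igtp, -0.52 for Iigp1, -1.36 for Tgtp1, -1.01 for Tgtp2 and -0.14 for Ifi47. The same removal gave medians of 1.73 in the naive genotype and 0.80 in the WT ligature comparison. The causes were not tested.

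Replicate numbers did not pair the libraries: of 18 same-number pairs, 2 had a correlation of deviations over 0.1 (range -0.29 to 0.34), and 2 of 12 libraries were closest to their own number. With the number as a block, Tgtp2 in the WT ligature comparison was -0.0275, 0 members were called, and 271 genes were called in that comparison in place of 481. Over all genes with reads, DESeq2 called 18 in ligated genotype, 2 in naive genotype and 1374 in the WT ligature comparison. Among the 15046 genes of the edgeR fit it called 17, 2 and 1371, where edgeR called 1, 1 and 481. The fit of only the compared libraries called 0 in ligated genotype. With single libraries left out, counts ran from 0 to 2 in ligated genotype, 27 to 900 and 837 to 2949 in the WT and CybbKO ligature comparisons, and 0 to 1 in the interaction. The removal of both libraries gave 3100 in CybbKO, in place of 1954.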

Other observations

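Other interferon-stimulated families were high in the same library as the members. Of 10 guanylate-binding proteins, GTPases related to the members that act on pathogen vacuoles, 9 had their highest value in ligated CybbKO replicate 2, as did 13 of 13 MHC class II and class I targets and 14 of 19 type I interferon-stimulated genes, beside 7.24% of all genes tested. This library also stood apart from its group in fibroblast, epithelial and muscle markers. The most abundant guanylate-binding protein, Gbp2, was at 17.1 ± 15.1, 22.2 ± 11.6, 12.2 ± 4.01 and 51.7 ± 34.3 CPM (SD, n = 3) in naive WT, naive CybbKO, ligated WT and ligated CybbKO, and Gbp4 at 7.003 ± 3.43, 19.04 ± 14.4, 8.37 ± 2.37 and 32.5 ± 24.4 CPM (SD, n = 3). B2m, the light chain of MHC class I, was at 231 ± 150, 380 ± 128, 248 ± 71.8 and 713 ± 508 CPM (SD, n = 3), and Cd74, the chaperone of MHC class II, at 112 ± 10.3, 132 ± 46.5, 120 ± 6.54 and 176 ± 72.1 CPM (SD, n = 3) in the same order.

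Between ligated CybbKO and ligated WT, edgeR called 0 genes of these 3 families. The median log2 fold change was 1.57 over 9 guanylate-binding proteins tested, 1.01 over 19 type I genes and 0.75 over 13 MHC targets, beside 2.40 for the members and 0.01 for all genes. At an unadjusted p under 0.05 there were 8, 4 and 7 genes, beside 3.34% of all genes in edgeR, and DESeq2 called 1, 0 and 0, beside 0.113%. The members were chosen with this comparison known and the lists with earlier results known. Nothing is therefore read from the order of these medians or from these counts. Between naive and ligated CybbKO tissue edgeR called 1 of 9, 1 of 19 and 1 of 13 genes, all higher after ligature, beside 13.0% of all genes. DESeq2 called 2, 1 and 4, beside 18.5% of all genes. The genes called by edgeR were Gbp9 (log2 fold change 1.01, SE 0.26), Ddx58, a sensor of viral RNA (0.76, SE 0.17), and H2-Aa, a chain of MHC class II (0.70, SE 0.17), of which Gbp9 and H2-Aa were named after their values were seen. Each call was lost without at least 2 of the CybbKO libraries left out singly. In WT the ligature estimates were 0.79 (SE 0.26) for Gbp9, 0.60 (SE 0.17) for Ddx58 and 0.42 (SE 0.17) for H2-Aa, not called by edgeR. The interaction estimates were 0.23, 0.16 and 0.27 in the same order. Monocyte and macrophage and dendritic cell markers also rose with ligature in CybbKO, and their part in these genes was not tested.

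The 10 autophagy and partner genes of the GTPase system, led by Gabarap and Map1lc3b, stayed within a log2 fold change of -0.09 to 0.14 between ligated CybbKO and WT, and 0 were called in any contrast. At an unadjusted edgeR p under 0.05 there were 2 in the WT ligature comparison, beside 19.9% of all genes, and 0 elsewhere, and DESeq2 called 0. The 6 genes of the neutrophil CXC chemokine list, among them Ppbp and Cxcl5, had a median log2 fold change of 1.37 with ligature in CybbKO and 1.29 in WT. Of these, Cxcl2 (2.32, SE 0.67) and Cxcr2 (2.16, SE 0.32) were called in CybbKO by edgeR (adjusted p = 0.0483 and 0.00279), 2 of 6 beside 13.0% of all genes. In WT edgeR and DESeq2 called 0, with 4 at an unadjusted edgeR p under 0.05, beside 19.9% of all genes. The call of Cxcl2 was lost with 7 of the 12 libraries left out singly and that of Cxcr2 with none. Cxcr2 is a receptor that is also on the neutrophil marker list, of which 7 of 9 tested were called higher in that comparison. The part of neutrophils in these values was not tested. In the interaction edgeR and DESeq2 called 0 of the 6, with 1 at an unadjusted edgeR p under 0.05, beside 2.27% of all genes.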
